A study of Rattus norvegicus with 9 samples.

Results

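Protocadherins form the largest group of the cadherin superfamily, calcium-dependent adhesion proteins on the surface of neurons and other cells. The genes described here are the protein-coding genes of the deposited count table whose symbol begins with Pcdh, 48 of 37991 genes in all. They comprise 36 clustered genes (1 Pcdha, 18 Pcdhb and 17 Pcdhg) and 12 non-clustered genes. They were measured by RNA sequencing in 3 groups of 3 libraries, taken on day 15 from the medial prefrontal cortex. Every rat was a Wistar Kyoto rat, an inbred strain used to model depression-like behaviour. Control rats were untreated, K4 rats received a compound known here only by that code through an intravenous cannula for 7 days, and Ketamine rats received ketamine, an NMDA receptor antagonist, subcutaneously for 7 days. Both treatments were followed by 7 days without the compound. All 3 groups were of the same strain, so no group of an ordinary strain stands beside them. The labels give no dose, vehicle, age or sex, and the 2 compounds went in by different routes. Whether the libraries stand for different animals is not said either, and the p-values below therefore reflect the scatter among libraries, which may be technical.

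In the clusters, many first exons lie in a row, each with a promoter of its own, and each neuron transcribes a small, partly random choice of them. An alpha or gamma first exon is spliced to constant exons that its whole cluster shares, whereas most beta genes consist of a single coding exon. The proteins bind like to like across membranes, and the combination a cell carries lets its branches recognise and avoid their own. CTCF and cohesin, which bind the promoters and a distant enhancer, take part in promoter choice. The non-clustered members are ordinary genes with regional expression patterns in the brain, known for roles in axon growth, synapse formation and cell sorting.

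The shared exons limit what a single clustered value means. The alpha cluster stood in the table as 1 entry, Pcdha4, which held 18 transcripts, so its value is not that of a single gene. An alpha 13-like gene model had a row of its own, and Pcdhac1, Pcdhac2 and Pcdhgc4 had no row of their own. For 13 of the 17 Pcdhg entries, the length implied by the deposited counts and FPKM lay between 5.17 and 5.37 kb. Lengths so alike would be given by a variable exon joined to the shared ones, in which case reads from shared exons are part of these values. How such reads were divided among the Pcdhg genes is not given in the sources used here, and each Pcdhg value is uncertain to that extent. The beta genes share no exon, but their coding sequences are alike, and reads could be divided among near-copies there as well. A further 12 symbols are described in the table as protocadherin-like but do not begin with Pcdh and are not members; among them are gene models described as like Pcdh15 and like alpha, beta and gamma B protocadherins, which could have taken reads.

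The clustered promoters are shown for a short element that recurs among them. RefSeq promoter sequences of the GRCr8 build were found for 41 members (42 windows), and the 250 bases before each start were searched on both strands for CGCT, the core of the conserved element of clustered protocadherin promoters. On the strand of the gene it occurred in 38.6% of all 33469 promoter windows and on the other strand in 40.0%. It stood on the gene's strand in 15 of 15 Pcdhb windows, and on the other strand in 1 of them. It stood on the gene's strand in 11 of 15 Pcdhg windows and on the other strand in 8, and in 6 and 9 of 11 non-clustered windows. A longer string read from the Pcdhb windows themselves, GTGGCGCTG, which contains CGCT, occurred in 14 of the 15 Pcdhb windows, in 0 Pcdhg and 0 non-clustered windows, and in 0.251% of all windows on the gene's strand (0.173% on the other). CGCTGTT, read from the Pcdhg windows and also containing CGCT, occurred in 10 of 15 Pcdhg windows, 1 Pcdhb window and 0.756% of all windows (0.837% on the other strand). Both longer strings were chosen after the windows were seen. A match describes the letters only and was not tested as a binding site.

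The last 100 bases before the start are printed 5′ to 3′ on the gene's strand, with CGCT in capitals, for 4 beta genes, 3 gamma A genes and Pcdhgc3, all on the + strand, and for the non-clustered Pcdh11x, also on the + strand, which had no match. Their positions in GRCr8 are chr18:29292190-29292289 for Pcdhb4, chr18:29478748-29478847 for Pcdhb19, chr18:29485788-29485887 for Pcdhb20 and chr18:29492119-29492218 for Pcdhb21. Those of the gamma genes are chr18:29750283-29750382 for Pcdhga3, chr18:29794152-29794251 for Pcdhga7, chr18:29843797-29843896 for Pcdhga12 and chr18:29884145-29884244 for Pcdhgc3. That of Pcdh11x is chrX:90279135-90279234.
Pcdhb4: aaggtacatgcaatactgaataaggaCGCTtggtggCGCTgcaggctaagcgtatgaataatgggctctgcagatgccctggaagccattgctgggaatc
Pcdhb19: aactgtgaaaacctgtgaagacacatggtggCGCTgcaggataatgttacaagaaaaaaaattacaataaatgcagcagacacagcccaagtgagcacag
Pcdhb20: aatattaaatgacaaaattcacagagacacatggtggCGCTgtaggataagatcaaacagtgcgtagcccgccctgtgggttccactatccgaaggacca
Pcdhb21: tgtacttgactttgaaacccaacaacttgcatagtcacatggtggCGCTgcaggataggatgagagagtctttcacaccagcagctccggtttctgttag
Pcdhga3: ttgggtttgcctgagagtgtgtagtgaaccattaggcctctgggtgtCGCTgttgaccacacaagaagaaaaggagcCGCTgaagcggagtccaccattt
Pcdhga7: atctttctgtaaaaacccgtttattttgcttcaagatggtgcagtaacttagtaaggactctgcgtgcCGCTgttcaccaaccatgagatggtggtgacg
Pcdhga12: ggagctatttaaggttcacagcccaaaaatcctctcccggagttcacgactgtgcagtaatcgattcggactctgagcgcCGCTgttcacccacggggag
Pcdhgc3: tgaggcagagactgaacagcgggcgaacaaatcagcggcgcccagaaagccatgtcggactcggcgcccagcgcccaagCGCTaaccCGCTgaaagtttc
Pcdh11x: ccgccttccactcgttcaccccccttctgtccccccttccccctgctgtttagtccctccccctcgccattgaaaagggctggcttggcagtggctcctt
The printed beta genes shared the string around the capitals over more than its core, and the printed gamma A genes shared a different one. Pcdhgc3 held CGCT without the letters that follow it in those gamma A genes. All clustered genes printed were ones with a match, while others, such as Pcdhb6 and Pcdhga11, had none in the last 100 bases.

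Levels were compared between genes on the deposited TPM scale, which divides by transcript length. Pcdhgc3 had the highest mean of all members, 119 TPM over the 9 libraries, with a range from 103 to 142. The next gamma genes were Pcdhgb8 at 24.7 TPM and Pcdhga7 at 23.7. Pcdhgc3 thus stood well apart from its cluster in each of the 9 libraries. Among non-clustered members the highest were Pcdh1 at 74.5, Pcdh10 at 59.3 and Pcdh8 at 40.6 TPM, and the ranges of Pcdh1 (54.9 to 93.5) and Pcdh10 (49.2 to 73.5) overlapped. The Pcdha4 entry had 57.0 TPM. All Pcdhb genes were low, led by Pcdhb9 at 7.31, Pcdhb5 at 6.85 and Pcdhb17 at 4.77 TPM. The ranges of neighbours in that order overlapped, while that of Pcdhb17 lay wholly below that of Pcdhb9. Pcdhb1 had 5 counts in Ketamine replicate 3 and 0 in the other 8 libraries, and Pcdhgc5, a C-type gamma gene, had 2 or 3 counts in each library, so both fell below the filter on low counts. The other 46 members were tested. Apart from Pcdh12, each had at least 16 counts in every library.

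**Figure D1:**
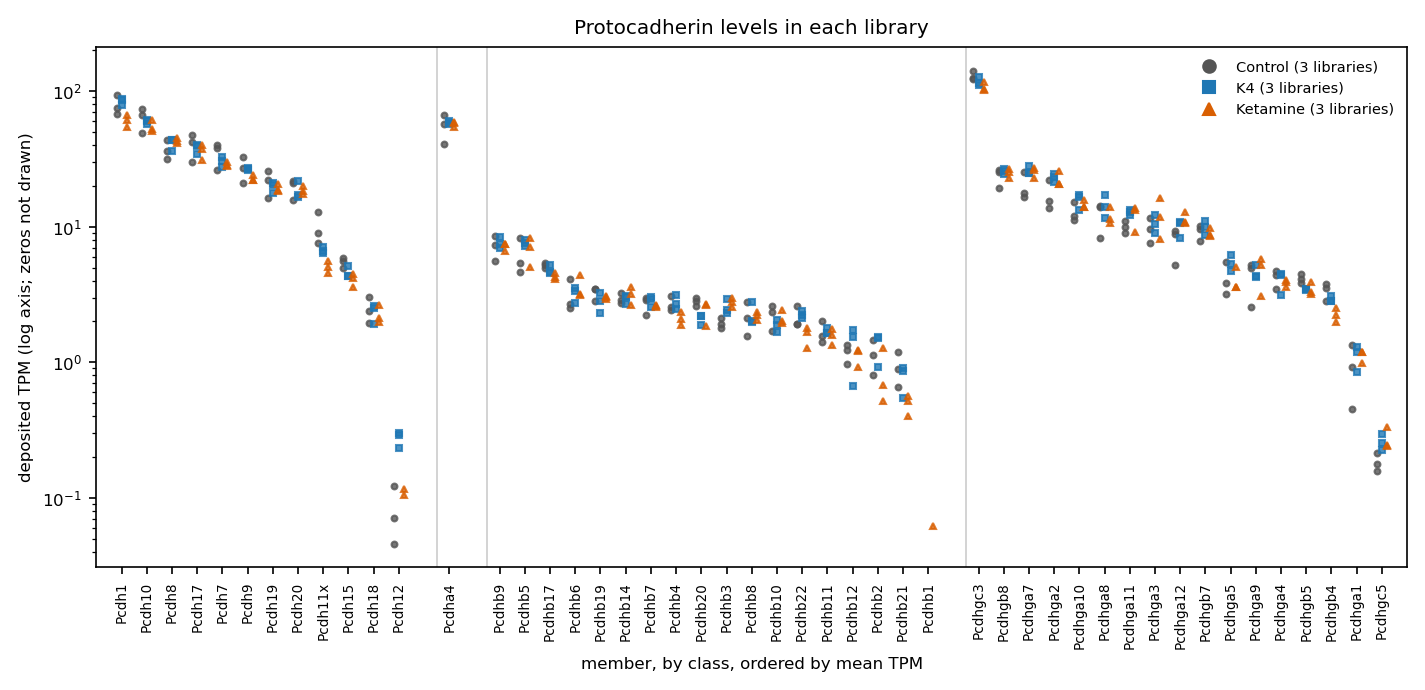
Deposited TPM (log axis) of each member in each library, by class and ordered by mean TPM; grey circles are Control, blue squares K4 and orange triangles Ketamine, 3 libraries each, and zeros are not drawn. Pcdhgc3 lay above 100 TPM in all 9 libraries, while no Pcdhb gene reached 10 TPM.

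Facts of all 9 libraries touch these values. Library totals ran from 27122207 to 42731004 counts, and all 3 Control totals were above those of the treated libraries. The 13 mitochondrial protein genes made up 15.1% ± 3.68 of the Control libraries (SD, n = 3), 10.8% ± 0.518 of K4 and 11.4% ± 0.652 of Ketamine. The higher Control mean rests on replicates 1 and 2 (14.6% and 19.0%), while replicate 3, at 11.6%, lay within the Ketamine range. Longer genes had relatively more counts in Control than in treated libraries. The slope of log2 CPM on log2 transcript length, taken after removing each gene's mean, ran from 0.044 to 0.071 in Control, from -0.021 to 0.0019 in K4 and from -0.067 to -0.018 in Ketamine. A fit with an offset that removes each library's length trend is therefore given beside the comparisons. The part of this length trend in each member's difference is shown only by that fit and was not tested otherwise.

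Ketamine against Control gave 12 members lower and 0 higher at an adjusted p below 0.05 by edgeR's quasi-likelihood test, with all 9 libraries in 1 fit. That is 12 of 46 tested members (26.1%), where 16.7% of all 18047 genes tested were called, 9.75% lower and 6.95% higher. Of the 12, 7 were non-clustered (of 12 tested), 3 were Pcdhb genes (of 17) and 2 were Pcdhg genes (of 16), both of type B. The median log2 fold change was -0.33 for the non-clustered members, -0.22 for Pcdhb and 0.0013 for Pcdhg, beside -0.0023 for all genes tested. With the length offset these medians were -0.14, -0.09 and 0.13, beside 0.027 for all genes tested. All 12 also had a lower mean on the deposited TPM scale. In bulk tissue, fewer cells of a type and less RNA per cell cannot be told apart.

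The largest of these differences was in Pcdh11x, an X-linked delta-1 protocadherin of neurons, a subfamily whose cytoplasmic tail binds protein phosphatase 1. Its normalised count was 20.6, 20.3 and 27.5 CPM in Control libraries, 14.6, 13.9 and 13.5 after K4 and 12.05, 10.7 and 10.1 after ketamine. The 3 groups did not overlap, with every K4 library below the lowest Control and above the highest Ketamine library. It fell by 1.06 on the log2 scale after ketamine (SE 0.122, edgeR adjusted p = 0.000376), and the call held in all 9 fits that each left out 1 library. With the length offset it fell by 0.95 (edgeR adjusted p = 0.00108).

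Pcdh1, another delta-1 member and the most abundant non-clustered one, had 112, 117 and 129 CPM in the Control libraries, 114, 124 and 105 in those of K4 and 93.3, 84.5 and 78.1 in those of Ketamine. Only the Ketamine libraries stood apart, all below every other library, and the K4 range lay across that of Control. It fell by 0.49 after ketamine (log2, SE 0.0816, edgeR adjusted p = 0.00233) and by 0.45 with the length offset (adjusted p = 0.00848). Pcdh1 was called in all 9 fits that left out 1 library.

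Pcdh7 and Pcdh9 are the remaining delta-1 members in the table. Pcdh7 had 154, 123.2 and 149 CPM for Control, 108, 104 and 117 for K4 and 108, 109 and 109 for Ketamine. Both treated groups lay wholly below Control and across each other. After ketamine it fell by 0.39 (log2, SE 0.0781, edgeR adjusted p = 0.00586), but with the length offset the log2 difference was -0.17 (adjusted p = 0.214). Pcdh9 had 88.7, 79.3 and 99.0 CPM without treatment, 78.5, 82.4 and 76.2 after K4 and 73.6, 66.5 and 68.4 after ketamine. Its Ketamine libraries were below all others, and the K4 range overlapped Control. It fell by 0.36 after ketamine (log2, SE 0.0774, edgeR adjusted p = 0.00845), and the value with the length offset was -0.18 (adjusted p = 0.182).

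Of the delta-2 members, which include the partners of the actin-regulating WAVE complex, Pcdh10 and Pcdh19 were called. Pcdh10, named also OL-protocadherin and needed for axon growth in the forebrain, had 243, 208 and 246 CPM in Control libraries, 197, 196 and 198 after K4 and 208, 175 and 177 after ketamine. The Ketamine and Control ranges overlapped slightly, with Ketamine replicate 1 at 208.5 and Control replicate 2 at 208.2. It fell by 0.31 after ketamine (log2, SE 0.0790, edgeR adjusted p = 0.0175), a call held in 5 of the 9 fits that left out 1 library. Pcdh19, X-linked and the gene of an epilepsy that affects mainly girls, had 101, 86.1 and 105 CPM in the Control libraries, 84.4, 74.2 and 82.0 in those of K4 and 86.1, 75.8 and 81.2 in those of Ketamine. Its Ketamine range also overlapped that of Control slightly, near 86.1, and its call was held in 3 of the 9 fits that left out 1 library. It fell by 0.26 (log2, SE 0.0806, edgeR adjusted p = 0.0404), and with the length offset the value was -0.03 (adjusted p = 0.848), while that of Pcdh10 was -0.12 (adjusted p = 0.355).

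The other delta-2 members, Pcdh8, Pcdh17 and Pcdh18, were not called, nor was Pcdh20, a further non-clustered member. Pcdh8, also called arcadlin and induced by neuronal activity, had 78.5, 78.5 and 86.5 CPM for Control, 85.02, 74.5 and 83.2 for K4 and 92.2, 84.7 and 84.1 for Ketamine. Its log2 difference after ketamine was 0.10 with a 95% interval from -0.05 to 0.25, which makes it the only non-clustered member with a positive value. Pcdh17, which acts at presynaptic terminals, had a log2 difference of -0.22 (interval -0.44 to -0.0048, edgeR adjusted p = 0.151). Pcdh18 had -0.25 (adjusted p = 0.346) and Pcdh20 -0.18 (adjusted p = 0.201), and the Ketamine and Control ranges of all 4 overlapped.

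Pcdh15, best known for the tip links of inner ear hair cells and in brain a transcript of oligodendrocyte precursors, had 14.4, 14.1 and 12.7 CPM without treatment, 11.3, 10.1 and 9.49 after K4 and 10.3, 9.37 and 8.45 after ketamine. All 6 treated libraries were below all 3 Control libraries. It fell by 0.55 after ketamine (log2, SE 0.110, edgeR adjusted p = 0.00534) and by 0.43 with the length offset (adjusted p = 0.0272). Of 6 markers of oligodendrocyte precursors, 3 were called lower after ketamine, Gpr17, Pdgfra and Cspg4, where 9.75% of all genes tested were lower. After K4, 0 of the 6 were called, where 3.80% of all genes were lower. With the length offset, 1 of the 6 was called lower after ketamine and 0 after K4. The shares of all genes were then 4.02% and 1.05%. None of the 6 was at 0 in all libraries. Their summed level ran from 245 to 387 CPM in Control, from 222 to 278 in K4 and from 206 to 223 in Ketamine. The K4 range overlapped that of Control. The part of these markers in the result was not tested.

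Pcdh12, an endothelial protocadherin also called VE-cadherin-2, rested on few counts. It had 12, 8 and 4 counts in Control libraries, 20, 21 and 14 after K4 and 8, 6 and 0 after ketamine. The K4 libraries were the highest although their totals were below those of Control, but the difference was not called against Control (edgeR adjusted p = 0.183) or against Ketamine (adjusted p = 0.456). Its log2 difference from Control was 1.501 after K4 (interval 0.10 to 2.91) and -0.41 after ketamine (interval -2.07 to 1.25). The summed level of 7 endothelial and mural markers ran from 276 to 402 CPM in Control, from 234 to 272 in K4 and from 192 to 220 in Ketamine, below Control in both treated groups. None of the 7 was at 0 in all libraries, and 3 were called lower in each comparison with Control (2 and 3 with the length offset).

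**Figure D2:**
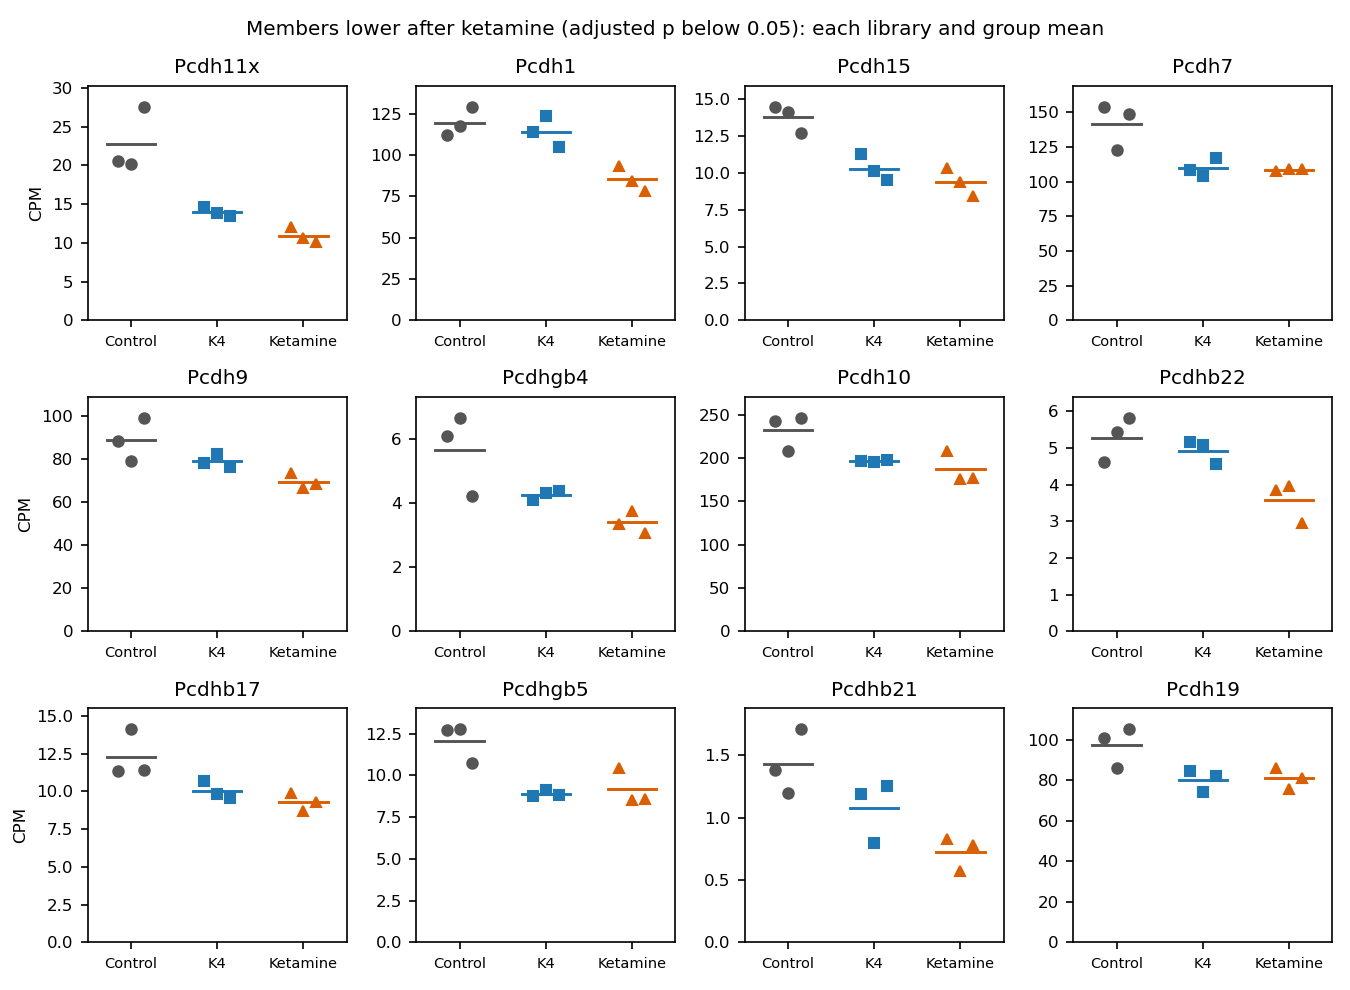
Normalised counts (CPM, axis from 0) of the 12 members called lower after ketamine, with a point for each library and a line at each group mean; Control grey, K4 blue, Ketamine orange, 3 libraries each. In Pcdh11x the 3 groups separate, in Pcdh1 only Ketamine stands below, and in Pcdh7 and Pcdhgb5 both treated groups lie at a like level below Control.

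Among Pcdhb genes, whose proteins join alpha and gamma proteins in the recognition units, Pcdhb17, Pcdhb21 and Pcdhb22 were lower after ketamine. Pcdhb22 had 4.62, 5.43 and 5.81 CPM in the Control libraries, 5.17, 5.07 and 4.56 in those of K4 and 3.85, 3.95 and 2.95 in those of Ketamine. Its Ketamine libraries were below all others, and K4 lay within or just below Control. It fell by 0.56 (log2, SE 0.158, edgeR adjusted p = 0.0284). Pcdhb21, whose promoter is printed above, had 1.38, 1.20 and 1.71 CPM for Control, 1.19, 0.794 and 1.25 for K4 and 0.826, 0.570 and 0.781 for Ketamine. That is 46 to 69 counts in Control and 16 to 27 in Ketamine, the lowest of the called members. It fell by 0.97 (log2, SE 0.289, edgeR adjusted p = 0.0369). Pcdhb17 had 11.4, 14.1 and 11.4 CPM without treatment, 10.7, 9.84 and 9.56 after K4 and 9.91, 8.73 and 9.32 after ketamine, with all treated libraries below Control. It fell by 0.40 (log2, SE 0.113, edgeR adjusted p = 0.0290).

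The length offset left none of these 3 called, with values of -0.44 for Pcdhb22, -0.93 for Pcdhb21 and -0.29 for Pcdhb17 (edgeR adjusted p = 0.109, 0.0674 and 0.129). Pcdhb21 was called in 4, Pcdhb22 in 5 and Pcdhb17 in 6 of the 9 fits that left out 1 library. Of the 17 tested Pcdhb genes, 14 had a negative log2 difference after ketamine, where 9076 of all 18047 genes tested did. With the length offset 13 of the 17 were negative, with a median of -0.09, where 8120 of all genes were. Pcdhb4 was the nearest one not called, at -0.47 (edgeR adjusted p = 0.0770).

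In the gamma cluster, Pcdhgb4 had 6.09, 6.66 and 4.23 CPM in Control libraries, 4.10, 4.31 and 4.39 in K4, and 3.36, 3.78 and 3.07 in Ketamine. Its Ketamine libraries were below all others, and Control replicate 3 lay within the K4 range. It fell by 0.74 after ketamine (log2, SE 0.177, edgeR adjusted p = 0.0139), and by 0.69 with the length offset (adjusted p = 0.0301). Pcdhgb5 had 12.7, 12.8 and 10.7 CPM in the Control libraries, 8.79, 9.11 and 8.81 in those of K4 and 10.5, 8.55 and 8.56 in those of Ketamine. All its treated libraries were below Control, Ketamine replicate 1 by little. It fell by 0.39 (log2, SE 0.114, edgeR adjusted p = 0.0326), with -0.24 under the length offset (adjusted p = 0.193). Pcdhgb5 was called in 5, and Pcdhgb4 in 7, of the 9 fits that left out 1 library.

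Pcdhgc3, a C-type gamma gene that promotes dendrite branching in cortical neurons, had 303, 397 and 270 CPM for Control, 247, 290 and 236 for K4 and 264, 226 and 237 for Ketamine. All Ketamine libraries were below all Control libraries, with Control replicate 2 far above the rest. The log2 difference was -0.42 and just missed the threshold (interval -0.70 to -0.13, edgeR adjusted p = 0.0509). Pcdhga12 went the other way, with 23.2, 15.0 and 20.2 CPM without treatment, 23.5, 19.3 and 23.7 after K4 and 29.6, 24.7 and 25.1 after ketamine. Its Ketamine libraries were the 3 highest. Its log2 difference of 0.44 also missed the threshold (interval 0.13 to 0.76, edgeR adjusted p = 0.0528), and with the length offset it was called higher, at 0.57 (adjusted p = 0.0254).

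Pcdhga2 and Pcdhga7 had log2 differences of 0.27 and 0.23 after ketamine and 0.26 and 0.21 after K4, none of them called, with edgeR adjusted p from 0.134 to 0.260. The gamma genes thus spread to both sides of 0, with 8 positive and 8 negative values in each comparison with Control. With the length offset, 12 were positive and 4 negative after K4, and 9 and 7 after ketamine. Of all 18047 genes tested, 9264 and 9927 were then positive. The Pcdha4 entry had 197, 166 and 213 CPM in Control libraries, 177, 185 and 186 in K4, and 186, 189 and 178 in Ketamine, and the groups overlapped. Its log2 difference was -0.06 after ketamine (interval -0.23 to 0.11) and -0.07 after K4 (interval -0.24 to 0.10), and both turned positive with the length offset, at 0.13 and 0.04.

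**Figure D3:**
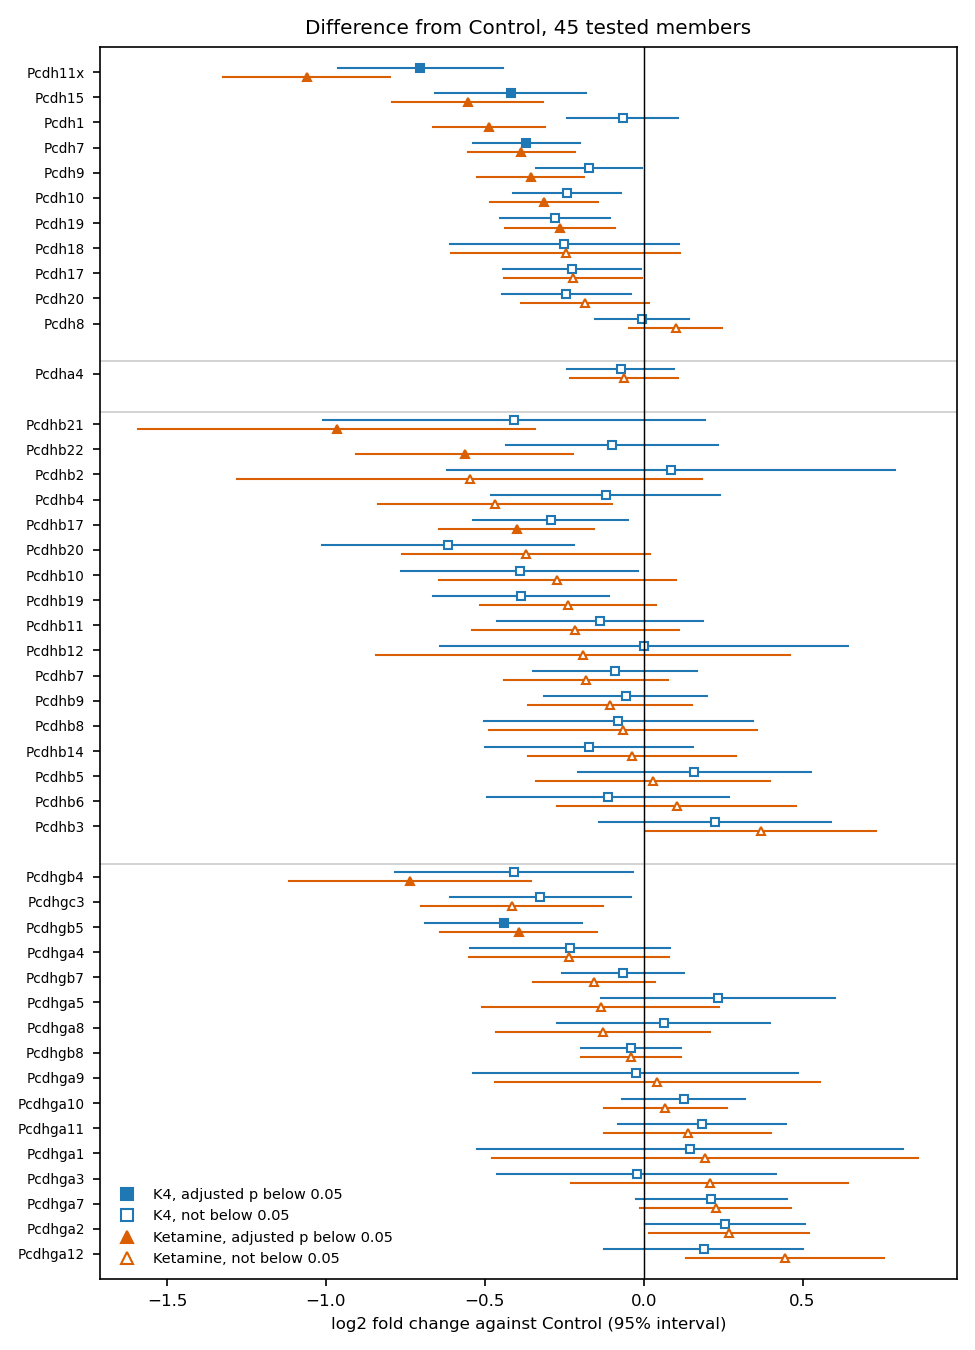
Log2 fold change against Control with its 95% interval for 45 tested members by class, K4 as blue squares and Ketamine as orange triangles; filled symbols have an adjusted p below 0.05, and Pcdh12 is left out for its few counts. All filled symbols lie below 0, and the gamma genes spread to both sides of it.

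With the length offset, 4 of the 12 members remained called lower after ketamine, Pcdh11x, Pcdh1, Pcdh15 and Pcdhgb4, and Pcdhga12 was called higher, where 7.41% of all genes were called (4.02% lower and 3.39% higher). DESeq2 called all 12 and also Pcdhgc3 lower and Pcdhga12 higher, where it called 13.6% of all genes (7.78% lower and 5.83% higher). The libraries of the 2 groups did not overlap in 16 members that were lower and 2 that were higher, where 18.1% and 16.9% of all genes were so. Without Ketamine replicate 2, or without Ketamine replicate 3, 5 members were called, and without Control replicate 1, 8 were, 7 of them among the 12. Calls over all genes also varied when 1 library was left out, over the range given in the closing section.

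**Figure D4:**
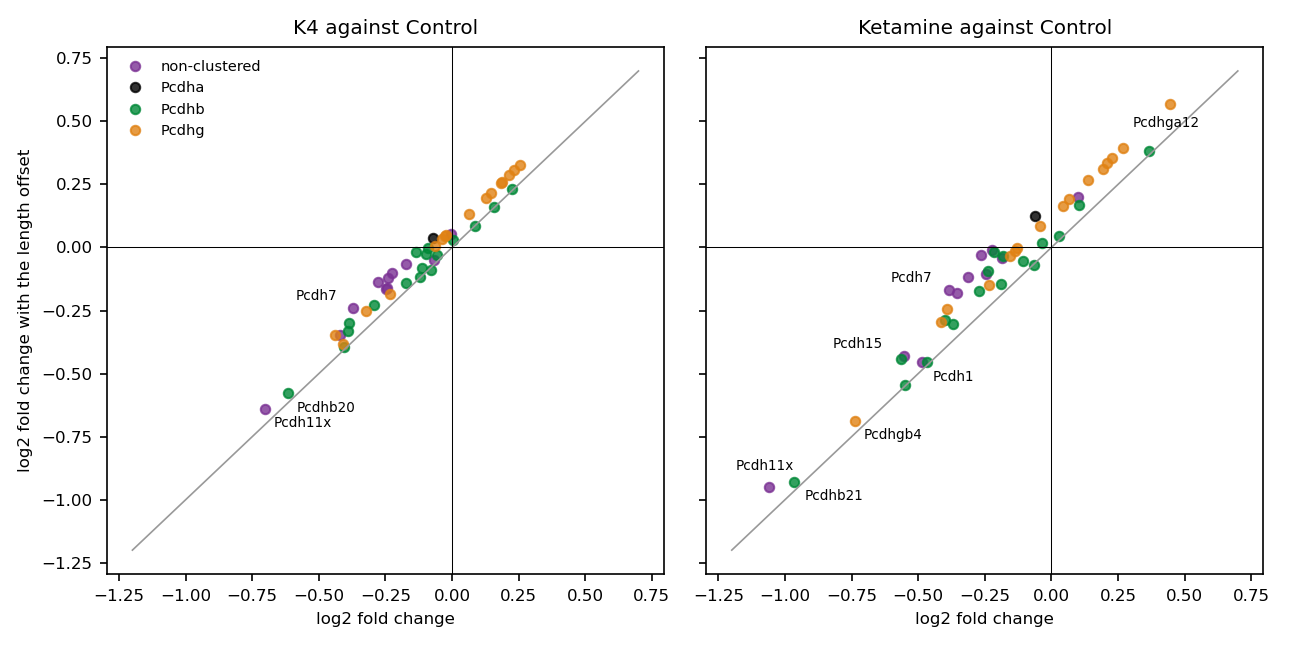
Log2 fold change against Control in the fit used (horizontal) and with the length offset (vertical) for 45 tested members, K4 on the left and Ketamine on the right, coloured by class, with a grey line of equal values. Nearly all points lie on or above the line, and Pcdh11x stays far below 0 on both axes.

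K4 against Control gave 4 members lower and 0 higher, of 46 tested (8.70%), where 6.07% of all genes were called, 3.80% lower and 2.27% higher. They were the non-clustered Pcdh11x, Pcdh7 and Pcdh15 and the gamma gene Pcdhgb5, whose values by library are given above. All 4 were also among the 12 called after ketamine. The 2 comparisons share the Control libraries, so a common set is partly built in.

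Pcdh11x fell by 0.70 after K4 (log2, SE 0.120, edgeR adjusted p = 0.00836), was called in all 9 fits that left out 1 library, and fell by 0.64 with the length offset (adjusted p = 0.0200). Its K4 libraries were close together, from 13.5 to 14.6 CPM. Pcdh7 fell by 0.37 (SE 0.0780, adjusted p = 0.0193), Pcdhgb5 by 0.44 (SE 0.115, adjusted p = 0.0402) and Pcdh15 by 0.42 (SE 0.110, adjusted p = 0.0410), all by edgeR. For these 3 the K4 libraries also lay wholly below Control, but the calls were less stable. Pcdh7 was called in 6, and Pcdhgb5 and Pcdh15 in 2, of the 9 fits that left out 1 library. Under the length offset Pcdh11x alone of the members was called, where 1.92% of all genes were (1.05% lower and 0.870% higher). The values of the other 3 with the offset were -0.24 for Pcdh7, -0.35 for Pcdhgb5 and -0.35 for Pcdh15 (edgeR adjusted p = 0.125, 0.107 and 0.0987).

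The nearest members not called after K4 were Pcdh19 at -0.28 (edgeR adjusted p = 0.0588), Pcdhb20 at -0.62 (adjusted p = 0.0648), Pcdh10 at -0.24 (adjusted p = 0.0883) and Pcdhb19 at -0.39 (adjusted p = 0.0918). Pcdhb20, whose promoter is printed above, had 4.64, 6.19 and 4.68 CPM in the Control libraries, 3.00, 3.67 and 3.44 in those of K4 and 4.46, 4.42 and 3.12 in those of Ketamine. Its K4 libraries lay below all Control libraries, and so did those of Ketamine, by less. Pcdhb19 had 9.52, 9.07 and 8.66 CPM for Control, 7.84, 7.36 and 5.61 for K4 and 7.55, 7.66 and 7.90 for Ketamine, again with all treated libraries below Control. After ketamine Pcdhb20 had -0.37 (adjusted p = 0.182) and Pcdhb19 -0.24 (adjusted p = 0.227).

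Other members gave smaller or wider values after K4. Pcdh1 had -0.07 (interval -0.24 to 0.11), Pcdh8 -0.0045 (interval -0.15 to 0.14) and Pcdh9 -0.17 (edgeR adjusted p = 0.200). Pcdhgb4 had -0.41, Pcdhb21 -0.41, Pcdhgc3 -0.32, Pcdhb17 -0.29, Pcdhb22 -0.10 and Pcdhga12 0.19, none of them called. Pcdh17, Pcdh18 and Pcdh20 had -0.23, -0.25 and -0.24. The non-clustered members had a median log2 fold change of -0.24, Pcdhb of -0.11 and Pcdhg of 0.02, beside -0.0046 for all genes tested. With the length offset these medians were -0.13, -0.08 and 0.09, beside 0.0070 for all genes tested. The libraries of the 2 groups did not overlap in 9 members that were lower and 2 that were higher, where 14.2% and 13.3% of all genes were so. DESeq2 called these 4 members and also Pcdh10, Pcdh19 and Pcdhb20, where it called 7.33% of all genes (4.48% lower and 2.84% higher). Only Pcdh11x was called without Control replicate 1, without K4 replicate 1 or without K4 replicate 2. Without Control replicate 2, or without Control replicate 3, 6 and 7 members were called. Calls over all genes varied among such fits as well, over the range given in the closing section.

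K4 against Ketamine, which tests whether the 2 treatments differ, called 0 members by edgeR, where 0.00% of all genes were called. At an unadjusted p below 0.05 there were 5 members and 1648 of 18047 genes. DESeq2 called 66 genes (0.257%, with 0.218% higher and 0.0389% lower after K4), among them 1 member, Pcdh1. Pcdh1 was higher after K4 than after ketamine by 0.42 on the log2 scale (interval 0.24 to 0.60, edgeR adjusted p = 0.170), and the K4 libraries, at 105 to 124 CPM, were all above the Ketamine libraries, at 78.1 to 93.3. By DESeq2 its adjusted p was 0.00323, and 0.04999 by edgeR on these 2 groups alone.

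The other members of smallest p were Pcdhb22 (log2 difference 0.46, interval 0.12 to 0.81) and Pcdh11x (0.36, interval 0.09 to 0.63), both with an edgeR adjusted p of 0.43. Next by p came Pcdh12, with the largest difference on few counts (1.91, interval 0.39 to 3.43), and Pcdh9 (0.19, interval 0.02 to 0.35). Among members whose interval included 0, Pcdhga5 had 0.37 (interval -0.0055 to 0.74), Pcdhb4 0.35 (interval -0.02 to 0.72) and Pcdhgb4 0.33 (interval -0.06 to 0.72). The Pcdha4 entry had -0.01 (interval -0.18 to 0.16). Groups did not overlap in 6 members that were higher after K4 and 1 that was lower, where 9.49% and 8.29% of all genes were so. The intervals of Pcdh1, Pcdhb22, Pcdh11x, Pcdh12 and Pcdh9 lie above 0 before adjustment, and no member passed it in the edgeR fit of all 9 libraries.

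The test of all 3 groups together called 9 members by edgeR, where 12.2% of all genes were called. They were 7 non-clustered genes (Pcdh11x, Pcdh1, Pcdh7, Pcdh15, Pcdh9, Pcdh10 and Pcdh19) and 2 gamma B genes (Pcdhgb5 and Pcdhgb4), and no Pcdhb gene. With the length offset 3 members were called, where 4.83% of all genes were. Without Control replicate 1, 2 members were called, without Ketamine replicate 2 or 3, 4 were, and without K4 replicate 1, 2 or 3, 5 were. The number of all genes called also varied among these fits, over the range given in the closing section.

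Sums over a class depend less on how reads of shared exons were divided. The summed level of the 12 non-clustered members was 1042, 913 and 1082 CPM without treatment, 876, 851 and 878 after K4 and 858, 808 and 806 after ketamine. All treated libraries were below all Control libraries on this scale. On the deposited TPM scale the median of all genes tested moved up by 0.17 after K4 and by 0.12 after ketamine (log2), so TPM ratios are read against that. The non-clustered log2 ratio to Control was -0.22 for K4 and -0.30 for Ketamine in CPM, and -0.20 and -0.32 in TPM relative to the median gene. Without that reference the TPM ratios were -0.03 and -0.20, and the groups overlapped.

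The Pcdhb sum was 94.4, 94.8 and 98.1 CPM in Control libraries, 89.0, 89.9 and 79.8 in K4, and 86.7, 83.8 and 81.0 in Ketamine. Again the treated libraries lay below Control in CPM, but in TPM the groups overlapped and the ratio for K4 turned to 0.04, which is -0.13 relative to the median gene. The log2 ratio was -0.15 for K4 and -0.19 for Ketamine in CPM. The whole Pcdhg sum, with 654, 730 and 648 CPM in the Control libraries, 627, 654 and 615 in those of K4 and 626, 606 and 615 in those of Ketamine, was lower in every Ketamine library, with a log2 ratio of -0.14. In TPM that ratio was -0.01, or -0.13 relative to the median gene.

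Within the gamma cluster the sums of the A and C types had log2 ratios to Control of opposite sign. The types share the constant exons, so their separate sums depend on how reads of shared exons were divided. The C sum is nearly that of Pcdhgc3 alone, since Pcdhgc5 had 2 or 3 counts in each library. Of these A and C sums, only the C sum after ketamine lay wholly apart from Control, below it. The C sum after K4 and the A sums after both treatments overlapped Control. The sum of the 4 B members also leaves out the gamma B-like gene models. It lay wholly below Control after both treatments in CPM, with log2 ratios of -0.11 for K4 and -0.14 for Ketamine. In TPM the B sums of both treatments overlapped Control. The Pcdhga sum was 247, 236 and 281 CPM for Control, 288, 270.3 and 286 for K4 and 273, 291 and 284 for Ketamine. Its log2 ratio was 0.15 for both treatments in CPM, and 0.14 for both in TPM relative to the median gene. Pcdhgc3 made up 46.6%, 54.6% and 42.1% of the gamma TPM without treatment, 39.9%, 44.8% and 38.8% after K4 and 42.6%, 37.7% and 38.9% after ketamine. The means were 47.8% ± 6.35, 41.1% ± 3.19 and 39.7% ± 2.58 (SD, n = 3), and the ranges of Control and each treatment overlapped. The A genes made up 37.4% ± 5.51, 44.2% ± 2.83 and 45.6% ± 2.21. Control replicate 2, the library with the highest mitochondrial share, had the highest Pcdhgc3 share and the lowest Pcdhga share of all 9.

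**Figure D5:**
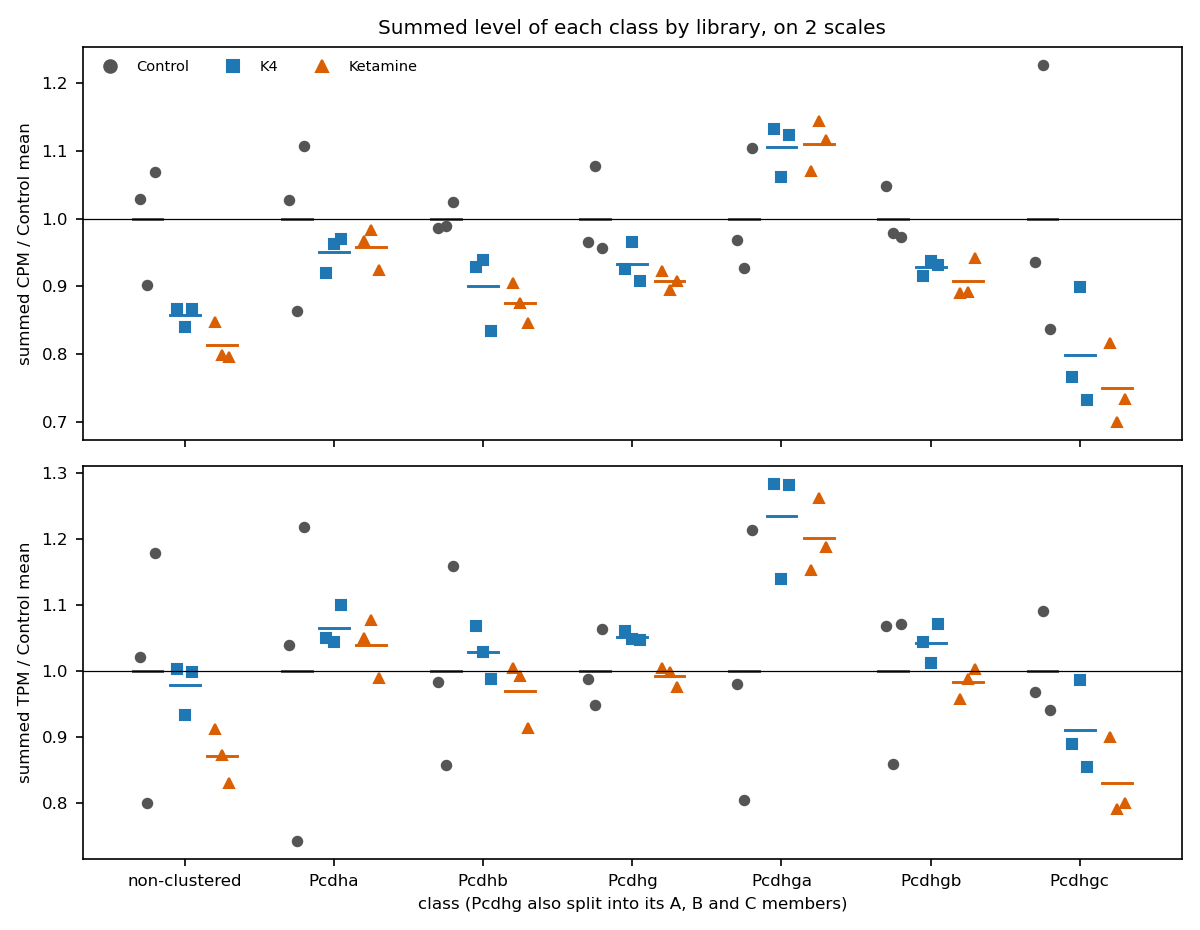
Summed level of each class divided by its Control mean, in CPM (top) and deposited TPM (bottom), with a point for each library and a line at each group mean; Pcdhg is also split into its A, B and C members. In CPM the non-clustered and Pcdhb sums of treated libraries lie below all Control libraries, in TPM they overlap, and the mean ratios of the A and C members of Pcdhg lie on opposite sides of 1.

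Genes that act on or with protocadherins were counted from lists chosen with earlier results known, with calls by the same edgeR fit. Beside these counts, 3.80% of all genes were called lower and 2.27% higher after K4, and 9.75% lower and 6.95% higher after ketamine. With the length offset these shares were 1.05% and 0.870% after K4, and 4.02% and 3.39% after ketamine. Of 23 regulators of the clusters (cohesin, CTCF, and DNA and histone methylation), 7 were called lower and 0 higher after K4, and 10 lower and 0 higher after ketamine, with medians of -0.18 and -0.20. They were led by cohesin and its cofactors. Nipbl, the cohesin loader, fell by 0.43 after K4 and 0.51 after ketamine, Stag2, a cohesin subunit, by 0.35 and 0.45, and Wapl, which releases cohesin, by 0.33 and 0.35. Rad21, the cohesin ring subunit, fell by 0.27 after K4. The length offset left 1 of the 23 called lower after K4 (Nipbl) and 2 after ketamine (Nipbl and Stag2). The medians of the 23 were then -0.07 and -0.04, beside 0.0070 and 0.027 for all genes tested.

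Of 22 matched partners, proteases and signalling genes, 5 were called lower and 1 higher in each comparison with Control. Under the length offset, 0 were lower and 1 higher after K4, and 1 lower (Adam10) and 3 higher after ketamine, so most lower calls were lost. Adam10, which sheds gamma protocadherins, fell by 0.38 after ketamine, and Cdh2 (N-cadherin), which Pcdh8 and Pcdh19 bind, by 0.25 after K4 and 0.30 after ketamine. Marcks, an actin regulator downstream of gamma protocadherins, fell by 0.31 and 0.23, Rock1 and Nlgn1 by 0.28 and 0.30 after K4, and Prkca by 0.22 after ketamine, a difference that turned to 0.020 with the length offset. The gene called higher was Ptk2, a kinase held in check by clustered protocadherins, at 0.24 after K4, and Psenen, a gamma-secretase subunit, at 0.23 after ketamine, both named after their values were seen. Of 9 genes of the WAVE complex, Abi2 fell by 0.27 after K4, and after ketamine Wasf2, Wasf3, Abi2 and Nckap1 fell by 0.54, 0.48, 0.30 and 0.20, while Brk1, named after its value was seen, was higher by 0.23. In the offset fit, 0 of the 9 were called after K4 and 2 (Wasf2 and Wasf3) after ketamine, both lower.

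Of 19 tested classical and type II cadherins, 2 were called lower and 1 higher after K4, and 3 lower and 1 higher after ketamine. Cdh12 fell by 0.37 and 0.30, Cdh6 by 0.44 after ketamine, Cdh4 rose by 0.27 after K4 and Cdh22 by 0.29 after ketamine. None of these 19 was called lower with the length offset in either comparison, and 1 was then higher after K4 and 2 after ketamine. Of 14 Fat, Dachsous, Celsr and calsyntenin genes, giant relatives of protocadherins, 2 were lower and 1 higher after K4, and 6 lower and 0 higher after ketamine. Fat4 fell by 0.53 after K4 and 0.64 after ketamine, Fat1 by 0.39 and 0.49, Fat3 by 0.71 and Dchs1 by 0.59 after ketamine, and Cdhr1 rose by 0.63 after K4. Cdh23, the tip-link partner of Pcdh15, was named after its value was seen and fell by 1.03 after ketamine (edgeR adjusted p = 0.0164), though it was not called with the length offset (adjusted p = 0.0816). The medians of these 14 genes were -0.06 after K4 and -0.33 after ketamine, beside -0.0046 and -0.0023 for all genes tested. The offset fit had 0 of the 14 lower and 2 higher after K4, and 2 lower (Fat3 and Fat4) and 2 higher after ketamine, with medians of 0.11 and -0.12. In K4 against Ketamine, 0 genes of any of these lists were called.

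Some markers of cell types moved with the groups, to either side, with calls read against the shares of all genes given above. Of 8 astrocyte markers, 2 were called lower after K4 and 6 after ketamine, and their summed level ran from 3549 to 5681 CPM in Control, 3194 to 3631 in K4 and 3046 to 3288 in Ketamine. Of 6 microglial markers, 1 and 3 were called lower, and of 5 general neuronal markers, 1 (Map2) was lower in each comparison and 1 (Tubb3) higher after ketamine. The neuronal sum ran from 5953 to 6090 CPM in Control, 5317 to 5736 in K4 and 5482 to 5568 in Ketamine. The median log2 fold change of these 5 markers was nevertheless positive, at 0.10 in each comparison with Control. Of 5 excitatory markers, 2 (Camk2a and Tbr1) were lower after ketamine, and of 7 inhibitory markers 2 (Lamp5 and Pvalb) were higher and 1 (Gad2) lower. Of 5 markers of striatal neurons, 2 were called higher after K4 (Ppp1r1b and Rgs9) and 1 after ketamine (Ppp1r1b). The striatal sum ran from 77.5 to 86.7 CPM in Control, 92.1 to 109 in K4 and 89.8 to 94.3 in Ketamine, so both treated groups lay above Control. Of 7 oligodendrocyte markers, 1 (Cldn11) was higher after K4, and the sums of Control (1781 to 2920 CPM) overlapped those of K4 (2292 to 3098) and Ketamine (1605 to 2076). With the length offset, 1 astrocyte marker was lower after K4 and 2 after ketamine, 2 microglial markers were lower after ketamine, and 1 striatal marker was higher after K4. Also with the offset, 1 excitatory marker was lower after ketamine, 1 inhibitory marker was higher and 1 lower, and no general neuronal or oligodendrocyte marker was called. Of 7 markers of meninges and choroid plexus, 5 were tested and 0 called, with median log2 fold changes of 0.65 after K4 and 0.52 after ketamine. Their sum ran from 33.3 to 57.0 CPM in Control, 27.3 to 80.9 in K4 and 50.9 to 82.8 in Ketamine. One of them, Folr1, was at 0 in all 9 libraries, and no other marker was. The part of all these markers in the protocadherin results was not tested.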

How the data were processed

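RNA sequencing of rat medial prefrontal cortex gave 9 libraries, 3 each of Control, K4 and Ketamine. The authors deposited a table of raw read counts per gene together with FPKM and TPM values, per the file headers; no source used here states the counting tool, the strand setting or the handling of shared exons. The submitters' processing notes name build rn6, StringTie 2.1.3b, HISAT2 2.1.0, Trimmomatic and bcl2fastq 2.20.0, without the role of each. In 2951 genes with a single transcript the ratio of count to FPKM, scaled to library totals, varied between libraries by at most 0.0824% (CV), so the deposited FPKM are not independent of the counts.

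Members were the protein-coding genes with a symbol beginning with Pcdh. Members, lists and settings were chosen with earlier results of these data known. Counts were fitted in R 4.3.3 with edgeR 4.0.16 (TMM scaling, filterByExpr with minimum count 10 and minimum total 15, robust quasi-likelihood F test), all 9 libraries in 1 fit without covariates, which left 18047 genes. "Called" means an adjusted p (Benjamini-Hochberg, all tested genes) under 0.05. The biological coefficient of variation was 10.2%. The script was tested on simulated data. CPM are TMM-scaled counts.

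Alternatives were DESeq2 1.42.0 and its size factors, upper quartile scaling, no mitochondrial genes, an offset for transcript length (spline with 4 degrees of freedom on the length implied by count and FPKM), no filter, limma 3.58.1 on log2 FPKM with pseudocounts 0.1 and 1, only the groups compared, a replicate block, and leaving out each library.

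The rule for naming took members called in any test, the 2 of smallest p in each class and comparison without a call, the 3 of highest mean TPM in each class, all listed non-clustered members with Pcdhac1, Pcdhac2, Pcdhgc3, Pcdhgc4 and Pcdhgc5, and up to 4 called genes by p of each list; a list gene that the rule took is not reported here. Pcdhga2, Pcdhga3, Pcdhga12 and the genes so marked in the text were named after their values were seen. Promoters came from the RefSeq table of GRCr8.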

Additional observations from a re-analysis of the deposited data

How the results depend on the processing

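Members called after K4 (4 in the fit used) were 1 with the length offset, 1 and 1 by limma on log2 FPKM (pseudocounts 0.1 and 1), 1 with only the 2 groups, 2 with the replicate block and length offset, 7 by DESeq2, and 1 to 7 when 1 library was left out. Genes called (1095) were, in that order, 346, 437, 445, 452, 416, 1883 and 174 to 1548. After ketamine, members (12) were 5 with the offset, 4 and 4 by limma, 7 with block and offset and 5 to 14 with 1 library left out, and genes (3013) were 1337 with the offset, 1443 with block and offset and 1177 to 3191 with 1 library left out. In K4 against Ketamine, members (0) were 1 by DESeq2, 1 with only the 2 groups and 0 when any 1 library was left out, and genes (0) were 6 with no filter, 66 by DESeq2, 1 and 2 by limma, 27 with only the 2 groups, 1 with the replicate block, 2 with block and offset and 0 to 27 with 1 library left out. For all 3 groups, members (9) were 3, 2, 2 and 5 and genes (2205) 872, 1448, 1421 and 997 with the offset, limma at 0.1 and 1, and block with offset, and 2 to 9 members and 894 to 2492 genes with 1 library left out. The cause of these shifts was not tested.

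Same-numbered libraries correlated in their deviations from group means with r from 0.0024 to 0.106, over 0.1 in 1 of 9 pairs, and 4 of 9 libraries correlated best with their own number in both other groups, so the numbers were not taken to pair the libraries. With the replicate block, 5 members and 1168 genes were called after K4, 15 and 3191 after ketamine, and 0 members in K4 against Ketamine.

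Summed TPM gave log2 ratios of 0.090 (Pcdha), 0.041 (Pcdhb), 0.073 (Pcdhg) and -0.032 (non-clustered) for K4, -0.044 (Pcdhb), -0.011 (Pcdhg) and -0.20 (non-clustered) for Ketamine, and 0.035 (Pcdha), 0.084 (Pcdhg) and 0.17 (non-clustered) for K4 against Ketamine. With 1 library left out, CPM ratios in the order K4, Ketamine, K4 against Ketamine ran from -0.17 to 0.0075, -0.16 to 0.019 and -0.037 to 0.012 for Pcdha, -0.18 to -0.099, -0.22 to -0.17 and 0.0097 to 0.093 for Pcdhb, -0.13 to -0.043, -0.17 to -0.081 and 0.013 to 0.057 for Pcdhg, and -0.29 to -0.17, -0.37 to -0.25 and 0.060 to 0.11 for the non-clustered members.

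No called member changed direction under these alternatives; uncalled values near 0 did. Pcdh8 after K4 was 0.016 with upper quartile scaling, 0.0095 without mitochondrial genes, 0.052 with the offset, 0.00050 without filter, 0.033 and 0.031 by limma, 0.052 with block and offset, and -0.042 to 0.064 with 1 library left out. The Pcdha4 entry after K4 was 0.039 with the offset and 0.041 with block and offset, and after ketamine 0.125 with the offset, 0.128 with block and offset, and 0.0051 and 0.0044 by limma. With 1 library left out it ran from -0.17 to 0.026 after K4, -0.15 to 0.035 after ketamine and -0.036 to 0.012 in K4 against Ketamine, and Pcdh1 after K4 from -0.13 to 0.012. Of the related genes called, Prkca after ketamine turned to 0.020 with the offset and 0.021 with block and offset. Depth limits Pcdhb1, Pcdhgc5 and Pcdh12 most.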
